A study of Mus musculus with 6 samples.

Results

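Hox genes encode homeodomain transcription factors that give cells of the embryo their position along the head-to-tail axis. They lie in clusters named Hoxa, Hoxb, Hoxc and Hoxd, and within a cluster the genes are numbered by paralog group: the low-numbered, anterior genes are turned on earlier and nearer the head, and the high-numbered, posterior genes later and nearer the tail. In embryonic stem (ES) cells, which are grown from the early embryo and can form every tissue of the body, the clusters are known as classic targets of the Polycomb repressive complexes, which mark their chromatin and keep transcription low. The members described here are all loci whose symbol is a protein-coding Hox gene name (Hox, a letter a to d, a number): 39 loci of 23244 in the files. Of these, 38 are described, 10 Hoxa, 10 Hoxb, 9 Hoxc and 9 Hoxd genes, and every Hox count and sum below is over these 38.

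RNA depleted of ribosomal RNA was sequenced from mouse ES cells in 6 libraries that formed 2 groups of 3. The control group was an ES line with both Zscan10 alleles floxed for Cre-loxP deletion but not deleted, and its titles carry the mark -Tx. The null group was labelled Zscan10-null and described as constitutively knocked out, and its titles carry no such mark. The null line was a subclone, so genotype, clone and anything that -Tx stands for cannot be told apart. The labels name triplicates but not separate cultures, so the p-values rest on a spread between libraries that may be purely technical. Zscan10, the zinc-finger gene that was targeted, was at 44.2, 43.0 and 41.9 FPKM (sequenced fragments scaled for transcript length and library size) in control replicates 1 to 3 and at 5.49, 4.43 and 5.47 FPKM in null replicates 1 to 3.

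Depth was similar, at about 8200000 to 9100000 fragments per library, as estimated from the steps between low FPKM values, and total FPKM ran from 664555 to 699401. At this depth a single fragment was worth about 0.0538 FPKM at Hoxc13, and all 36 described Hox loci with a value came out as whole numbers of fragments within a tolerance of 5% of a step. The step of each locus was derived from its own lowest value above 0, so this holds partly by construction. For a locus with a value in a single library it holds wholly by construction. In bulk RNA, fewer cells that transcribe a gene and less RNA per cell cannot be told apart.

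Hox transcripts were scarce in both groups and more abundant in the null libraries. None of the described Hox loci reached a mean of 1 FPKM over the 6 libraries, and the highest single value was 1.59 FPKM, for Hoxb13 in null replicate 2. The summed level of the 38 loci was 2.89, 2.17 and 3.06 FPKM in control replicates 1 to 3 and 5.63, 8.59 and 6.51 FPKM in null replicates 1 to 3. The 2 groups did not overlap, and the ratio of their means (2.71 ± 0.474 and 6.91 ± 1.52, SD, n = 3 each) was 2.55. The sums rested on 45, 36 and 43 fragments in the control and 81, 139 and 96 in the null libraries, a depth-adjusted ratio of 2.55 with an exact 95% interval of 2.07 to 3.17 that covers counting error only. Between 15 and 16 Hox loci had a value above 0 in a control library, and between 26 and 29 in a null library.

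The grid of group means shows where in the clusters these few fragments lay. In the control group Hoxc13, Hoxc12, Hoxb9 and Hoxd13 stood above the rest, and most other loci were at 0 to 0.1 FPKM.

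**Figure D1:**
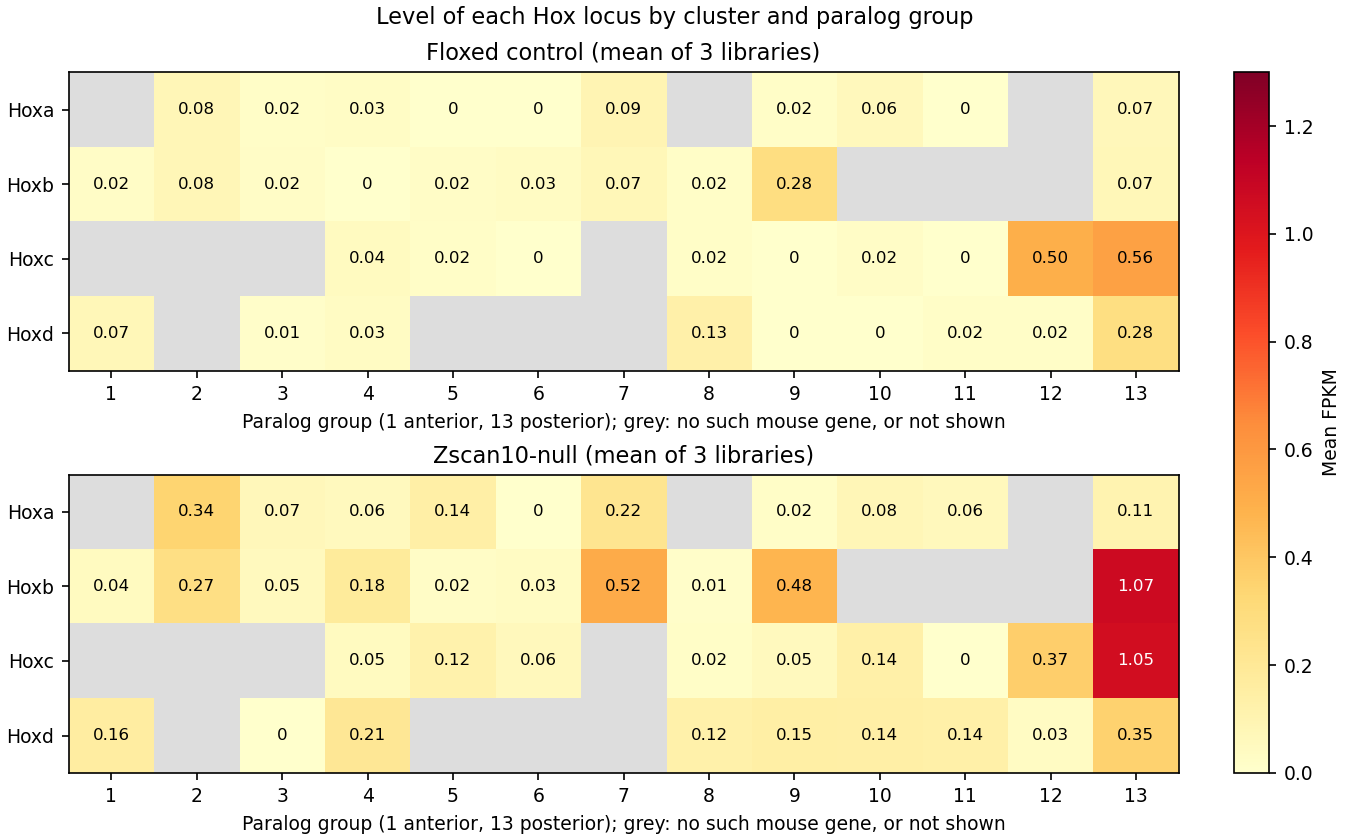
Mean FPKM of each Hox locus in the control (upper panel) and null libraries (lower panel), by cluster (rows) and paralog group (columns), 3 libraries per mean; grey cells have no mouse gene or are not shown. Hoxb13 and Hoxc13 exceed 1 FPKM in the null panel, and Hoxa6 and Hoxc11 are at 0 in both.

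Of the 38 loci, 28 had a higher mean in the null libraries, 8 had a lower one, and Hoxa6 and Hoxc11 were at 0 in all 6 libraries. Of these 8, only Hoxc12 and Hoxd3 had fewer fragments in the null group, and the others had equal numbers in both groups. Hoxc4, among the 28, also had equal numbers. With equal fragments the means differ only through library depth. For 11 loci every null library lay above every control library, and for 0 loci the reverse held. Among the 6996 loci of the whole table with a value and a mean under 1 FPKM, 7.78% had null libraries that all lay above the controls, 7.62% had them all below, and 52.5% had a higher null mean. Among all 18476 loci with a value these shares were 16.4%, 16.9% and 50.6%. Summed over all loci of comparable level the groups were close: the null sum was 1.14, 1.09, 1.02 and 1.01 times the control sum for loci with means up to 0.05, from 0.05 to 0.1, from 0.1 to 0.3 and from 0.3 to 1 FPKM.

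Differences were tested with limma on log2(FPKM + 1) over the 15260 loci whose mean reached 0.1 FPKM, with Benjamini-Hochberg adjustment. Only 12 of the described Hox loci reached that minimum, and 7 of these did so through the null group alone, since their control mean was under 0.1 FPKM. Hoxa2, Hoxb7 and Hoxb13 were among these 7, so that being tested at all went with a higher null level, and the share of tested Hox loci that were called is no estimate for the whole family. The other 26 were not tested: 24 had a value but a mean under the minimum, and 2 were at 0. Of the 12 tested loci, 4 rose in the null libraries (Hoxb7, Hoxb13, Hoxc13 and Hoxa2) and 0 fell, with 0 lower also at an unadjusted limma p under 0.05. Across the genome 9.64% of tested loci were called higher and 9.02% lower, and among the 3780 tested loci with a mean of 0.1 to 1 FPKM 3.04% were called higher and 2.94% lower (18.7% and 5.98% in either direction). Hoxb7 stayed past the threshold whichever library was left out, whereas Hoxa2, Hoxb13 and Hoxc13 each lost the call in several such fits.

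**Figure D2:**
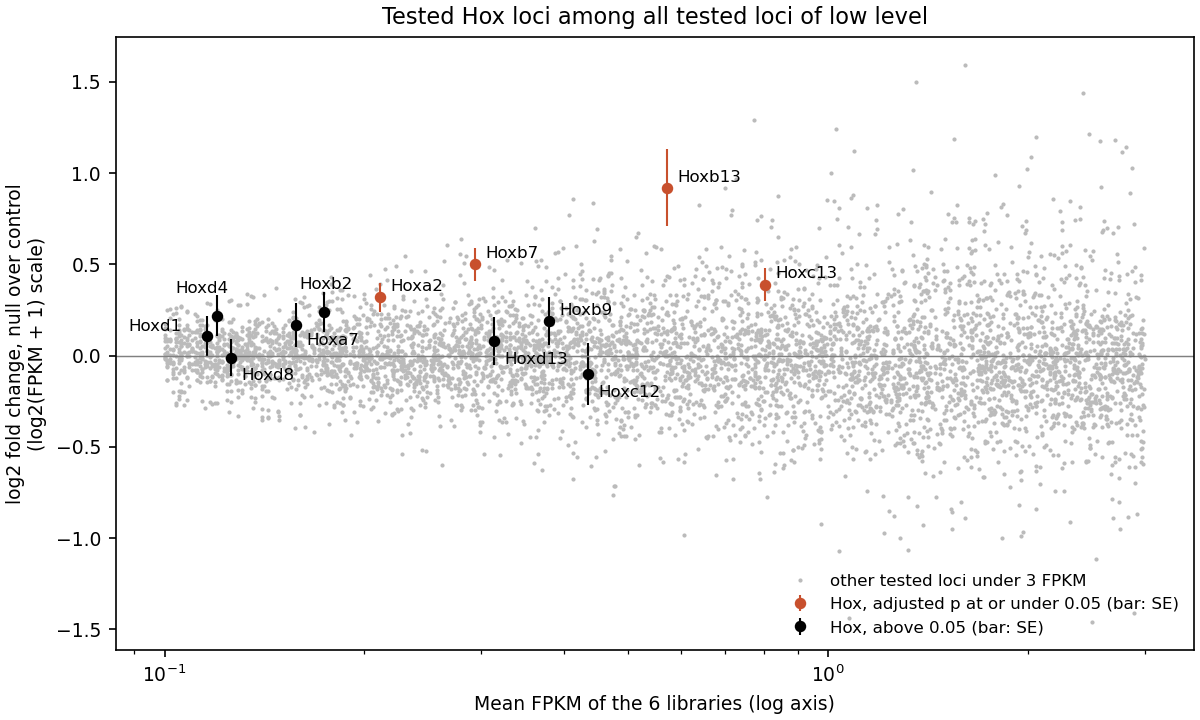
Log2 fold change (null over control, log2(FPKM + 1) scale) against the mean FPKM of the 6 libraries (log axis) for the 12 tested Hox loci (bars: SE) and all other tested loci under 3 FPKM (grey). The 4 Hox loci past an adjusted p of 0.05, in red, all lie above 0, and Hoxc12 and Hoxd8 are the 2 Hox loci just below it.

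The anterior genes, paralog groups 1 to 3, pattern the hindbrain and are among the first to respond to retinoic acid in differentiating ES cells. Hoxa2 (chromosome 6, 52162417 to 52164831, GRCm38.p6, which is mm10, as are all positions given) specifies the second pharyngeal arch. It was at 0.163, 0.0746 and 0 FPKM in control and 0.330, 0.372 and 0.325 FPKM in null replicates 1 to 3. The null values were close to each other and all above the controls, but they came from only 3 control and 13 null fragments. The log2 fold change was 0.32, SE 0.08, limma adjusted p = 0.0363. The call rested on most libraries: without control replicate 2 or 3 the adjusted p was 0.0984 and 0.108, without null replicate 1, 2 or 3 it was 0.0671, 0.0928 and 0.0812, and with a pseudocount of 0.1 it was 0.0509. Hoxb2, a hindbrain gene, was at 0, 0.232 and 0 FPKM in control and 0.256, 0.385 and 0.169 FPKM in null replicates 1 to 3. Its groups overlapped, and its log2 fold change of 0.24 (SE 0.11) did not pass (limma adjusted p = 0.181). Hoxd1, with 3 fragments against 7, did not pass either (0.11, SE 0.11, adjusted p = 0.543).

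The anterior loci Hoxa3, Hoxb1, Hoxb3 and Hoxd3 had between 0 and 4 fragments per group and were not tested. Hoxd3 was the only locus of the 38 with a fragment in the control group, a single one, and none in the null group. Hoxb1, also a hindbrain gene, had 1 control and 2 null fragments. Summed over the 7 anterior loci described the level was 0.390, 0.342 and 0.188 FPKM in control and 0.802, 1.15 and 0.849 FPKM in null replicates 1 to 3, groups that did not overlap, with a ratio of means of 3.04.

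The central genes, paralog groups 4 to 8, act in the neck and trunk. Hoxb7 (chromosome 11, 96285604 to 96290163) was the only central locus called. It was at 0, 0.104 and 0.113 FPKM in control and 0.572, 0.413 and 0.565 FPKM in null replicates 1 to 3. These are 2 fragments against 14, and the lowest null library was still far above the highest control. Hoxb7 had a log2 fold change of 0.50 with an SE of 0.09 (limma adjusted p = 0.00831), and adjusted p-values of 0.0156 to 0.0330 when 1 library at a time was left out. Its fragment ratio was 7.02, with a wide counting interval of 1.61 to 63.6.

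Hoxa5 and Hoxb4 had no fragment in any control library and at least 1 in every null library. Hoxa5, needed for lung and neck skeleton formation, was listed at 0 in all 3 control libraries and at 0.145, 0.131 and 0.144 FPKM in null replicates 1 to 3, which is 2 fragments in each. With 0 fragments in the control group its mean there could be up to 0.0697 FPKM (3 fragments over the group), and the observed null level of Hoxa5 was 2.0 times that limit. With counting error in both groups, the exact 95% lower bound of its fragment ratio was 1.2. The count, limit and bound rest on the transcript length matched to Hoxa5 (1877 bases, with 1878 implied by the step). Its values alone would also be whole at 1 fragment in each null library. Hoxa5 lay under the minimum for testing. With no minimum, limma called 5 Hox loci and Hoxa5 was the one added. Hoxb4, a regulator also known for its role in blood stem cells, was at 0 in the 3 control libraries and at 0.257, 0.232 and 0.0508 FPKM in null replicates 1 to 3. Null replicates 1 and 2 held 5 fragments each and null replicate 3 held 1. The control group could hold up to 0.0493 FPKM, and the observed null level was 3.67 times that limit, with an exact 95% lower bound of 2.52 for the fragment ratio of Hoxb4. Hoxa5 and Hoxb4 were singled out from the 38 loci by these same fragments. Their limits and bounds are not adjusted for that choice and describe the counts only.

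The upstream sequences show the promoters of an anterior gene that rose (Hoxa2), of the central genes that had no fragment in the controls but some in every null library (Hoxa5 and Hoxb4), and of a gene at 0 in all 6 libraries (Hoxa6). Each is the 250 bases before the start of the gene in RefSeq (GRCm38.p6), 5′ to 3′ on the strand of the gene, with CpG dinucleotides, the targets of DNA methylation and the hallmark of CpG islands, in capitals. Positions are chr6:52164832-52165081 for Hoxa2, chr6:52204588-52204837 for Hoxa5 and chr6:52208673-52208922 for Hoxa6, all on the minus strand, and chr11:96318017-96318266 for Hoxb4 on the plus strand.
Hoxa2: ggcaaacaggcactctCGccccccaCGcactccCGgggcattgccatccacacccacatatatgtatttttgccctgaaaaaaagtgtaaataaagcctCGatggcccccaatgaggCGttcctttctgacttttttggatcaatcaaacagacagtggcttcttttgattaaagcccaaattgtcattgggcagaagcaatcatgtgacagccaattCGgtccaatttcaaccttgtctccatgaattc
Hoxa5: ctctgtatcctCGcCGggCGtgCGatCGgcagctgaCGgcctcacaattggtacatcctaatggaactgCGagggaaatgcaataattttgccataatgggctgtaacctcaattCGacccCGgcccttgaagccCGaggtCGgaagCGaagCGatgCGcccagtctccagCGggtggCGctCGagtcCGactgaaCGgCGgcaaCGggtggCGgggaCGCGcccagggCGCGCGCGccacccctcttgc
Hoxb4: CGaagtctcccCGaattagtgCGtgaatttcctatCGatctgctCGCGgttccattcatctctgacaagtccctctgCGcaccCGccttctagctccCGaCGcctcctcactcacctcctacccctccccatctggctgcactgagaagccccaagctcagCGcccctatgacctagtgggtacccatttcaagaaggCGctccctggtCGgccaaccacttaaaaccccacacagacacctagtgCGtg
Hoxa6: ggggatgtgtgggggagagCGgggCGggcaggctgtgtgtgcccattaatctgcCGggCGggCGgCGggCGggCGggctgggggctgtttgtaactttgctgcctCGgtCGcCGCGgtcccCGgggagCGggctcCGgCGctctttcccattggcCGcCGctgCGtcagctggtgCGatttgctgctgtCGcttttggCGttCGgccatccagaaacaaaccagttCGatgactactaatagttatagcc

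Hoxa5 held 28 CpG, Hoxa6 24, Hoxb4 14 and Hoxa2 6. Hoxa6, with no fragment, and Hoxa5 thus had similar counts, and Hoxa2, which rose, had the fewest of the 4. Over the 24 windows found for 22 Hox genes the median was 12.5 CpG (2 to 35) with 58.6% GC, against 6.0 CpG and 52.4% GC over all 32851 promoter windows of the same table. On either strand, the TATA motif TATAAA was in 16.7% of the Hox windows and 12.4% of all, and AGGTCA, the half-site of retinoic acid receptors, in 25.0% and 14.0%. A letter match is a description of the window only. The 16 of these genes with no entry in the table were Hoxa4, Hoxb2, Hoxb3, Hoxb5, Hoxb6, Hoxb7, Hoxb9, Hoxb13, Hoxc5, Hoxc6, Hoxc8, Hoxc9, Hoxc10, Hoxc11, Hoxc12 and Hoxc13.

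Other central loci differed less or less evenly. Hoxd4 was at 0.0509, 0.0467 and 0 FPKM in control and 0.103, 0.419 and 0.102 FPKM in null replicates 1 to 3. The groups did not overlap, but 9 of its 13 null fragments were in replicate 2, and it did not pass (log2 fold change 0.22, SE 0.11, limma adjusted p = 0.225). Hoxc5 was at 0.0474, 0 and 0 FPKM in control and 0.0481, 0.217 and 0.0950 FPKM in null replicates 1 to 3. Control replicate 1 and null replicate 1 held 1 fragment each there, so the gap between those libraries is only their small difference in depth. Hoxa7 was at 0.275, 0 and 0 FPKM in control and 0.139, 0.188 and 0.344 FPKM in null replicates 1 to 3 (limma adjusted p = 0.370), with overlapping groups. Hoxd8 was at 0.0984, 0.0904 and 0.198 FPKM in control and 0.0998, 0.270 and 0 FPKM in null replicates 1 to 3, with 8 fragments in either group (adjusted p = 0.954). For Hoxd8 the fragment ratio of 1.0 had an interval of 0.328 to 3.06, so a change as small as the 1.88-fold of Hoxc13 was not detectable there at this depth. The remaining 7 central loci with a value (Hoxa4, Hoxb5, Hoxb6, Hoxb8, Hoxc4, Hoxc6 and Hoxc8) had 0 to 2 fragments per group. The central sum was 0.503 ± 0.0830 FPKM in control and 1.76 ± 0.409 FPKM in null libraries (SD, n = 3 each), a ratio of 3.49, and the groups did not overlap.

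The posterior genes, paralog groups 9 to 13, act in the lower trunk, limbs and urogenital tract. These 16 of the 38 loci held 86 of the 124 Hox fragments of the control libraries. Most of the 86 came from a few loci: Hoxc13 held 32, Hoxb9 18, Hoxd13 16 and Hoxc12 8. A typical posterior locus was not higher, with a median control mean of 0.0215 FPKM against 0.0246 for anterior and 0.0237 for central loci. In all control libraries 5 posterior loci were at 0. Hoxc13, needed for hair and nail formation, had the highest mean over the 6 libraries and lies at the outer end of its cluster (chromosome 15, 102921131 to 102928814). Hoxc13 was at 0.592, 0.444 and 0.648 FPKM in control and 1.09, 1.13 and 0.915 FPKM in null replicates 1 to 3. The groups were well apart at 32 fragments against 60, and the fragment ratio was 1.88 (1.20 to 2.98). The log2 fold change was 0.39, SE 0.09, with a limma adjusted p of 0.0254. It was lost without control replicate 1 or 2 (adjusted p = 0.0666 and 0.0854) and without null replicate 1 or 2 (0.0578 and 0.0737).

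Hoxb13, which acts in the prostate and the tail end of the body, sits apart from the rest of its cluster (chromosome 11, 96194316 to 96196610), which resumes at Hoxb9. It was at 0.217, 0 and 0 FPKM in control and 0.439, 1.59 and 1.19 FPKM in null replicates 1 to 3. Null replicate 1 stood at a lower level than the other 2 null libraries, with 4 fragments against 16 and 11. Only 2 control fragments were seen, both in replicate 1. Hoxb13 had the largest log2 fold change of the tested Hox loci, 0.92 with an SE of 0.21 (limma adjusted p = 0.0236). The call was lost without control replicate 2 or 3 (adjusted p = 0.0831 and 0.0749) and without null replicate 2 or 3 (0.0593 and 0.0745), and without null replicate 1 the adjusted p was 0.00355.

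The posterior loci Hoxc12, Hoxd13 and Hoxb9, of similar level, did not pass. Hoxc12, the neighbour of Hoxc13, was at 0.377, 0.173 and 0.947 FPKM in control and 0.383, 0.345 and 0.378 FPKM in null replicates 1 to 3, with a lower null mean (log2 fold change -0.10, SE 0.17, limma adjusted p = 0.739). Its control values, which spread over the whole range, stood for 2, 1 and 5 fragments. Hoxd13, which shapes the digits, was at 0.421, 0.145 and 0.264 FPKM in control and 0.213, 0.577 and 0.263 FPKM in null replicates 1 to 3 (0.08, SE 0.13, adjusted p = 0.721). Its groups overlapped throughout. Hoxb9, the next gene after Hoxb13 in its cluster, was at 0.240, 0.265 and 0.338 FPKM in control and 0.195, 0.659 and 0.577 FPKM in null replicates 1 to 3 (0.19, SE 0.13, adjusted p = 0.353). Null replicate 1 again stood low, below every control library, and without it Hoxb9 had an adjusted p of 0.0461.

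**Figure D3:**
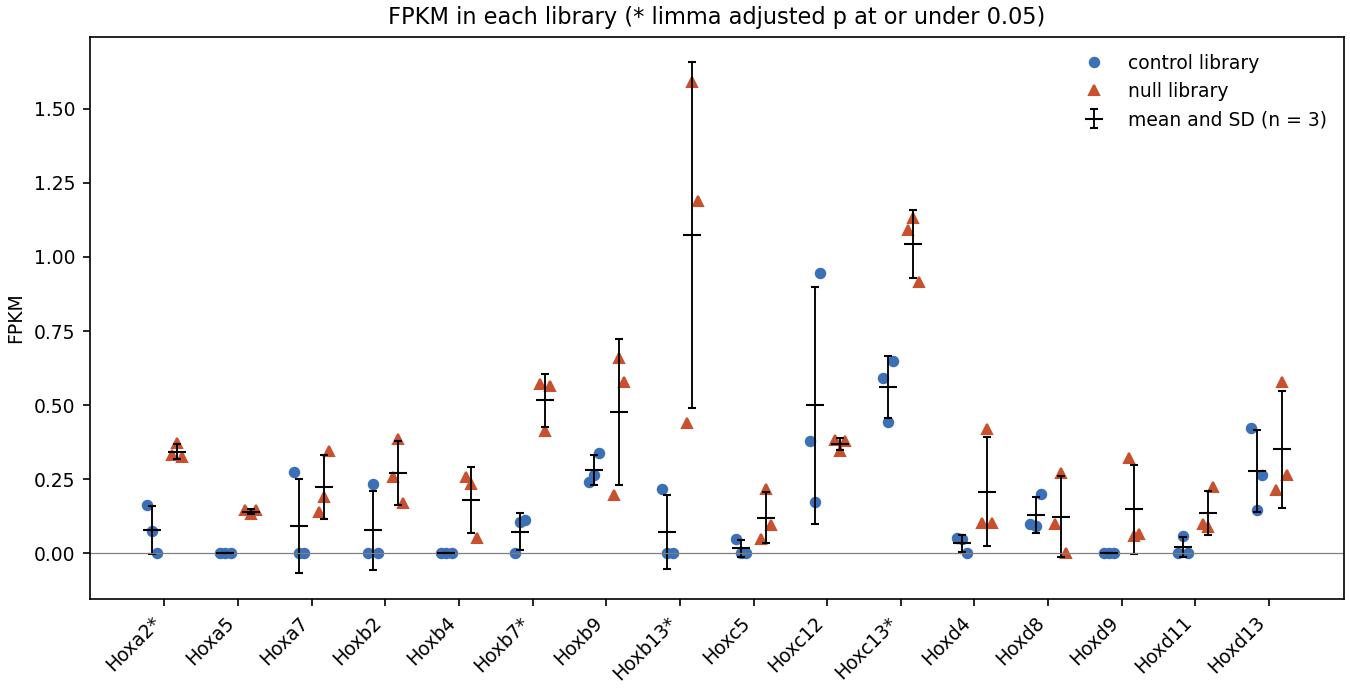
FPKM of the 16 Hox loci described by library, control libraries as blue circles and null libraries as red triangles, with the mean and SD (n = 3); an asterisk marks a limma adjusted p at or under 0.05. Hoxc13 shows separate groups well above 0, while the 3 Hoxb13 null libraries run from 0.439 to 1.59 FPKM.

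At the lower end, Hoxd9 was at 0 in the 3 control libraries and at 0.321, 0.0579 and 0.0633 FPKM in null replicates 1 to 3. Its fragment ratio had an exact 95% lower bound of 1.44, but 5 of its 7 fragments lay in null replicate 1. Hoxd11 was at 0, 0.0585 and 0 FPKM in control and 0.0970, 0.0875 and 0.223 FPKM in null replicates 1 to 3, without overlap. Hoxd10, at 0 in the controls and with 3 fragments each in null replicates 2 and 3, had a lower bound of 1.2, although null replicate 1 was also at 0. Its values alone would also be whole at fewer fragments, so its count and bound rest on the matched transcript length. The bounds of Hoxd9 and Hoxd10 are likewise not adjusted for singling these loci out by the same fragments. Hoxa11 had exactly 1 fragment in each null library and 0 in each control. Of the other posterior loci, Hoxc10 had 1 fragment against 6, Hoxa10 3 against 4, Hoxa13 2 against 3, Hoxc9 0 against 2, Hoxd12 1 against 2 and Hoxa9 1 against 1. The posterior sum was 1.90 ± 0.549 FPKM in control and 4.22 ± 0.957 FPKM in null libraries (SD, n = 3 each), a ratio of 2.23 without overlap. The ratio was 3.04, 3.49 and 2.23 for the anterior, central and posterior sums, and whether these ratios differ was not tested.

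By cluster, the null mean was higher in all 4 sums, and the summed FPKM of the groups overlapped only in Hoxc. The sum of the 10 Hoxa loci (chromosome 6, 52162417 to 52260880) was 0.498, 0.413 and 0.171 FPKM in control and 1.06, 1.07 and 1.15 FPKM in null replicates 1 to 3, a ratio of means of 3.03. The Hoxb sum (chromosome 11, 96194316 to 96368254) was 0.495, 0.734 and 0.636 FPKM in control and 1.76, 3.48 and 2.80 FPKM in null replicates 1 to 3, a ratio of 4.31. In both clusters all null libraries were well above all controls. The Hoxc sum (chromosome 15, 102921131 to 103036856) was 1.14, 0.679 and 1.67 FPKM in control and 1.90, 2.01 and 1.61 FPKM in null replicates 1 to 3, a ratio of 1.58. Control replicate 3, with its high Hoxc12 value, was above null replicate 3. In fragments Hoxc did not overlap, at 16, 11 and 18 in control and 28, 35 and 24 in null replicates 1 to 3. The depth-adjusted fragment ratio of Hoxc was 1.94, with a counting interval of 1.34 to 2.84. The Hoxd sum (chromosome 2, 74668225 to 74765142) was 0.759, 0.340 and 0.586 FPKM in control and 0.907, 2.04 and 0.943 FPKM in null replicates 1 to 3, a ratio of 2.31. Null replicate 2 supplied much of that, and the ratio was 1.65 without it. None of the 4 tested Hoxd loci was called by limma, and none had an unadjusted p under 0.05. Whether the clusters differ from each other in their ratio was not tested.

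**Figure D4:**
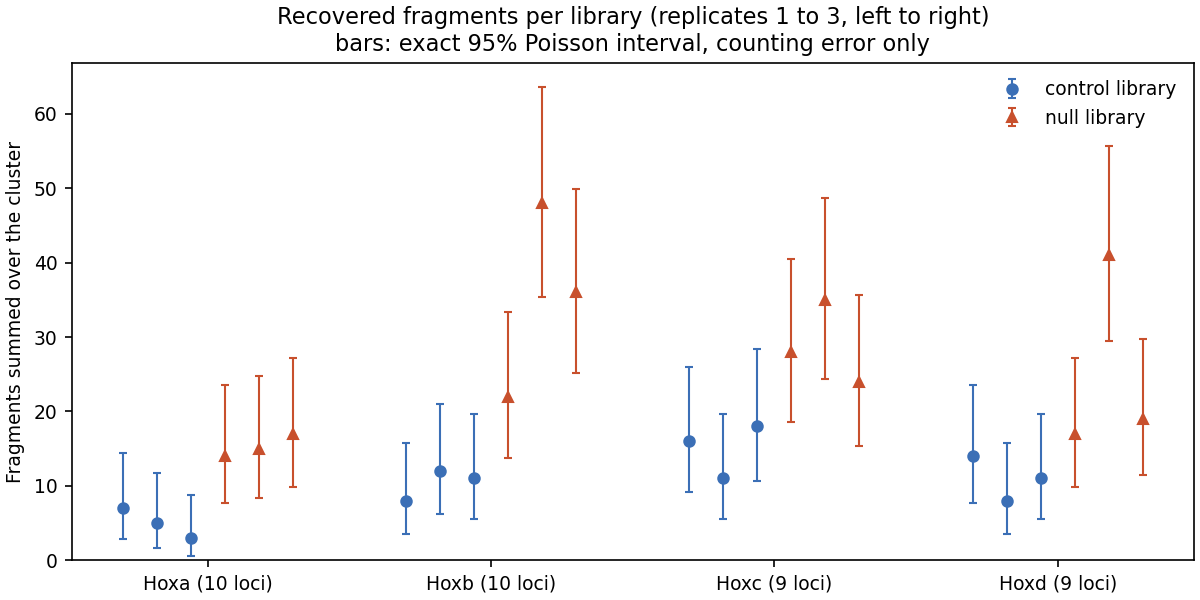
Fragments summed over each Hox cluster in each library, control in blue circles and null in red triangles, with exact 95% Poisson intervals that cover counting error only. Hoxa runs from 3 to 7 fragments in the control and from 14 to 17 in the null libraries, and null replicate 2 of Hoxd, at 41, stands above the other 2 null libraries at 17 and 19.

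A few genes carried much of each cluster. Hoxc13 made up 53.5% of the Hoxc sum over all libraries, Hoxb13 34.7% of Hoxb, Hoxd13 33.8% of Hoxd and Hoxa2 29.0% of Hoxa. For Hoxb and Hoxa this order came through the null libraries: in the control group Hoxb9 had a mean of 0.281 FPKM against 0.0722 for Hoxb13, and Hoxa7 0.0915 against 0.0790 for Hoxa2. Without these 4 the total was 1.72 ± 0.372 FPKM in control and 4.10 ± 0.727 FPKM in null libraries (SD, n = 3 each), a ratio of 2.39. The 26 loci too low to test summed to 0.314, 0.593 and 0.478 FPKM in control and 1.73, 1.91 and 1.61 FPKM in null replicates 1 to 3, from 23 fragments against 92. The null group was thus the higher one, without overlap, also among the loci under the minimum for testing.

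RefSeq spans of several Hox loci overlap: Hoxa4, Hoxa5 and Hoxa6 lie within the span of Hoxa3, Hoxb4 within Hoxb3 and Hoxd4 within Hoxd3, and the spans of Hoxd10 and Hoxd11 overlap. The sources used here do not say whether strand was used in counting, so fragments of such loci, and of antisense transcripts, may be shared. For Hoxb3, Hoxd11 and Hoxa10, which have more than 1 RefSeq transcript, the fragment numbers are approximate. The numbers of all loci, Hoxb13 and Hoxc12 among them, rest on the transcript length matched to them. For Hoxa5, Hoxd8 and Hoxd10 the values alone would also be whole at fewer fragments. Their counts, limits and intervals therefore depend on that length.

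Most genes that flank the clusters were measured at higher levels than the Hox loci, Evx1, Evx2 and Skap1 being low as well, and most did not pass. Of 19 tested flanking genes, 3 rose and 0 fell, although Snx10, beside Hoxa, was lower at an unadjusted limma p of 0.0125 (adjusted p = 0.0603). Over all tested loci 9.64% were called higher and 9.02% lower. The 2 largest flanking rises lay beside Hoxb13. Calcoco2, an autophagy receptor 69.8 kb outside the cluster, was at 26.2, 25.6 and 25.6 FPKM in control and 64.8, 71.4 and 62.6 FPKM in null replicates 1 to 3 (log2 fold change 1.32, SE 0.05, limma adjusted p = 3.74e-05). Ttll6, a tubulin-modifying enzyme gene between Calcoco2 and Hoxb13 and 28.1 kb from it, was at 0.878, 0.806 and 1.08 FPKM in control and 2.10, 2.23 and 2.24 FPKM in null replicates 1 to 3 (0.73, SE 0.09, adjusted p = 0.00250). Atp5g1, a mitochondrial ATP synthase gene on the far side of Calcoco2, was at 283 ± 5.67 and 277 ± 28.9 FPKM (adjusted p = 0.755). At the other end of Hoxb, Skap1, Snx11 and Cbx1 had log2 fold changes of -0.05, 0.06 and 0.04 and did not pass.

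Beside Hoxc, the heterochromatin gene Cbx5 rose from 83.8 ± 0.416 to 96.7 ± 4.10 FPKM (adjusted p = 0.0125), Smug1 and the locus of Hnrnpa1 missed the threshold at 0.20 and 0.12 (adjusted p = 0.102 and 0.0547), and Calcoco1 and Atp5g2 had log2 fold changes of -0.02 and -0.06. Beside Hoxa, the homeobox gene Evx1 was at 0.0698 ± 0.0851 and 0.173 ± 0.0721 FPKM (adjusted p = 0.345), and Skap2, Hibadh, Tax1bp1 and Snx10 lay between -0.13 and 0.08. Beside Hoxd, Mtx2, Lnp and Atp5g3 were between -0.14 and 0.10, and Evx2, with a value in 1 control library only, was not tested.

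**Figure D5:**
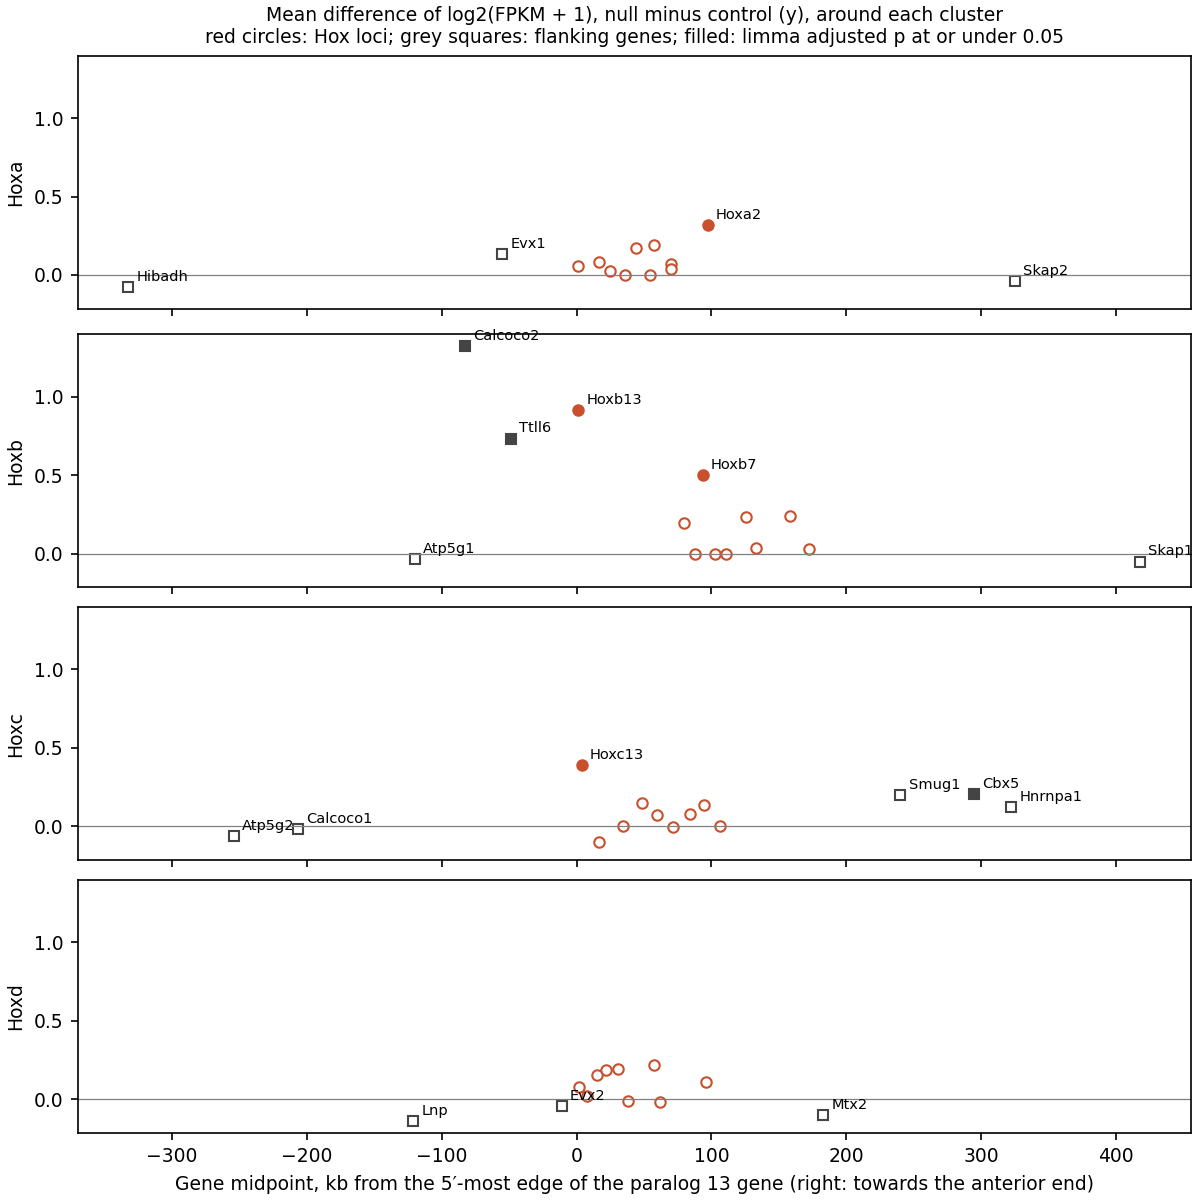
Mean difference of log2(FPKM + 1), null minus control, of Hox loci (red circles) and flanking genes within 450 kb (grey squares) against the distance in kb of the gene midpoint from the outer edge of the paralog 13 gene; filled symbols passed a limma adjusted p of 0.05. Calcoco2, Ttll6 and Hoxb13 are filled and neighbour each other at the posterior end of Hoxb, and no flanking gene of Hoxa or Hoxd is filled.

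Tested loci of chromosome 11, where Hoxb lies, had a median log2 fold change of -0.095 (1236 loci), below that of every other autosome (-0.0181 to 0.0217). Measured from that median, Hoxb7 was at 0.60 and Hoxb13 at 1.01, and the same 4 Hox loci were called. Of the noncoding loci inside the clusters, 8 of 20 listed symbols were found, none was tested, and 6 of them, all microRNA genes (Mir10a, Mir10b, Mir196a-1, Mir196a-2, Mir196b and Mir615), were listed at 0, which for so short a locus can be a failed estimate. Hotair, transcribed from within Hoxc, was at 0.0594, 0.0545 and 0 FPKM in control and 0.0602, 0.109 and 0.119 FPKM in null replicates 1 to 3. Hoxa11as was at 0.0470 ± 0.0408 and 0.0245 ± 0.0424 FPKM (SD, n = 3 each).

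Genes that act on Hox clusters or with Hox proteins were read from lists. The counts of calls in this and the later lists stand beside 9.64% called higher and 9.02% lower over all tested loci. Whether any list differs from these shares was not tested. Of the 11 tested subunits of Polycomb repressive complex 2, which writes the repressive histone mark, 6 rose and 0 fell (median log2 fold change 0.21), with 1 lower at an unadjusted limma p under 0.05. Aebp2 rose from 63.8 ± 4.10 to 102 ± 2.02 FPKM (adjusted p = 0.000486) and the catalytic subunit Ezh2 from 50.2 ± 0.649 to 58.1 ± 1.42 FPKM (adjusted p = 0.00877), and Rbbp7, Eed, Suz12 and Mtf2 were the others that rose. Of the 19 subunits of Polycomb repressive complex 1, 5 rose and 2 fell (median 0.07), and at an unadjusted limma p under 0.05 6 were higher and 5 lower. The chromobox gene Cbx8 (0.293 ± 0.167 to 2.93 ± 0.724 FPKM), Bmi1 and Kdm2b were among those that rose. Phc1 (110 ± 2.95 to 90.2 ± 1.94 FPKM) and Pcgf2 fell. Of 8 tested activators of the MLL type, 0 rose (1 was higher at an unadjusted limma p under 0.05) and only Rbbp5 fell, while Ash2l and Dpy30, the 2 most abundant, were at 336 and 343 FPKM and at 212 and 231 FPKM.

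Among the TALE homeodomain proteins that bind DNA together with Hox proteins, Meis2 rose from 0.932 ± 0.190 to 3.10 ± 0.211 FPKM (adjusted p = 0.00113), Pbx2 rose, Pbx3 fell from 3.60 ± 0.274 to 2.46 ± 0.156 FPKM, and the other 6 of 9 did not pass. Of 14 tested genes of the retinoic acid response, a known inducer of anterior Hox genes, 2 rose and 4 fell (median -0.11). The binding protein Crabp2 rose from 5.57 ± 1.02 to 10.6 ± 2.23 FPKM and the receptor Rarg from 79.3 ± 2.01 to 106 ± 1.94 FPKM, whereas Crabp1 and the retinoic acid-making enzyme Aldh1a2 fell, the latter from 1.22 ± 0.280 to 0.553 ± 0.232 FPKM. Rarb, itself a retinoic acid target, was at 0.274 ± 0.0565 and 0.180 ± 0.116 FPKM and did not pass (adjusted p = 0.451).

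Other homeobox genes give the nearest comparison. Of the Cdx and ParaHox genes, the evolutionary sister group of the Hox clusters, 1 of 5 tested rose: Pdx1, a pancreas regulator, was at 0.111, 0 and 0 FPKM in control and 0.563, 0.609 and 0.888 FPKM in null replicates 1 to 3 (adjusted p = 0.00427). The 6 genes of this group summed to 0.869 to 1.07 FPKM in control and 1.89 to 2.42 FPKM in null libraries, a ratio of 2.36 without overlap, and 5 of them had a higher null mean. Much of that difference came from Pdx1, with group means of 0.037 and 0.687 FPKM. It was also the only 1 of the 6 whose groups did not overlap. Cdx1, which activates Hox genes in the embryo, was at 0.356 ± 0.130 and 0.694 ± 0.343 FPKM (adjusted p = 0.211). Of 42 tested homeobox regulators outside these families 2 rose (Irx2 and Lmx1b) and 4 fell (Gbx2, Pax6 and En1 among them), with a median of 0.02. The 80 of these with a mean under 1 FPKM, the same range as the Hox loci, summed to 12.3, 12.5 and 11.4 FPKM in control and 15.7, 13 and 13.4 FPKM in null replicates 1 to 3, a ratio of 1.16. Of these 80 loci, 50 had a higher null mean and 26 a lower one, and the groups did not overlap for 11 with the null higher and 5 with the null lower, where the shares over all loci under 1 FPKM were 7.78% and 7.62%. The ratios were thus 2.55 for the Hox loci, 2.36 for the Cdx and ParaHox genes, much of it through Pdx1, and 1.16 for these homeobox loci. The differences between them were not tested.

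Markers of differentiated cells differed in both directions, as did all tested loci, of which 9.64% were called higher and 9.02% lower. The 10 mesoderm markers summed to 4.58 to 5.86 FPKM in control and 9.40 to 10.3 FPKM in null libraries, with 3 of 10 tested called higher (Eomes, Hand1 and Gata2) and none of the list at 0. Of the 10, 4 had a lower null mean, and Kdr, at 0.580 ± 0.133 and 0.358 ± 0.0604 FPKM without overlap, was lower at an unadjusted limma p of 0.0471 (adjusted p = 0.143). Eomes, the most abundant of them, was at 1.37 ± 0.215 and 4.25 ± 0.829 FPKM. The 22 fibroblast markers summed to 23.6 to 27.3 FPKM in control and 14.8 to 22.1 FPKM in null libraries, the opposite order, with Col1a1, Col1a2 and Acta2 lower and Thy1 higher of 17 tested. Of the 22, 10 had a higher null mean and 12 a lower one, and the median log2 fold change was -0.04. Most of the lower sum came from Tagln (8.8 to 4.86 FPKM, limma adjusted p = 0.0546) and Acta2 (3.93 to 1.73 FPKM). The neuroectoderm sum was 79.7 to 88.5 FPKM in control and 61.7 to 70.1 FPKM in null libraries (2 of 5 lower, Tubb3 and Pax6, with Olig2 at 0), and the endoderm sum 6.51 to 8.28 and 3.93 to 6.01 FPKM (1 of 8 lower, Cubn, while the more abundant Dab2 and Gata4 did not pass). The 10 ES cell markers, the defining genes of the labelled cell type, were abundant in all 6 libraries, at 4320 to 4410 and 4030 to 4360 FPKM in sum, with Esrrb, Zfp42 and Tfcp2l1 lower. The part of mesoderm markers, or of the ES cell markers that fell, in the Hox difference was not tested.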

How the data were processed

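The authors deposited 1 value per locus for each of 6 RNA libraries, with no unit named per the file headers. They were read as FPKM made by the authors from mapped fragments before they were deposited, because they fall in steps set by depth and length. Trim Galore, FastQC, TopHat, Cuffdiff and mm10 are named in the submitters' processing notes. Not given in the sources used here are versions, roles, scaling between libraries and strand. Coordinates came from RefSeq (GRCm38.p6), with 23204 of 23244 loci placed.

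Fragments were recovered as whole multiples of a step. The step of a Hox locus was its own lowest depth-scaled value above 0, divided by a whole number. That number was the one whose step came nearest to the step expected for an annotated transcript length. The expected step was fitted from length and depth (1150 loci, fitted length offset 210 bases). Matched and implied lengths could differ, as for Hoxc12 (962 and 844 bases). Of 9361 values from 1759 loci of low level, 79.5% were whole within 5% of a step. For this share the step of a locus was its own lowest value above 0, so part of the share holds by construction. Intervals are exact (95%) and cover counting error only, since PCR copies are not independent molecules. A count of 0 was taken to allow 3 fragments.

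The test was limma 3.58.1 (R 4.3.3; lmFit, eBayes with variance trend, two-sided) on log2(FPKM + 1), which understates changes of low loci, with Benjamini-Hochberg adjustment at 0.05 over 15260 loci of at least 0.1 FPKM on average. It was tried on simulated data. Given by library were the 12 Hox loci with the highest mean, those called, and those without overlap whose higher mean was at least 0.1 FPKM. The values of 1 Hox locus and of some listed genes that this rule would name are not reported here. Lists named up to 4 called members, or the 2 most abundant where fewer than 2 were called, and all flanking genes. Other genes, such as Ezh2, Mtf2, Rbbp5, Rarb, En1, Cubn and the lower Hox loci, were named after their values were seen. The members and lists were chosen with earlier results of these data known. Alternatives changed the pseudocount, minimum, scaling, variance trend, replicate block, chromosome centring, step tolerance and each library in turn.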

Additional observations from a re-analysis of the deposited data

How the results depend on the processing

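Other pseudocounts, scalings (median centring, quantile normalization, equal FPKM totals), chromosome centring and no variance trend left 3 or 4 of the described Hox loci called, all higher, and no minimum gave 5. A minimum mean of 1 FPKM left no Hox locus, so it gave no value. All Hox symbols name 1 gene, so leaving out loci of several symbols changed nothing. Leaving out 1 library at a time gave 1 to 3 Hox calls (1 without control replicate 2 or null replicate 2, and 2 without control replicate 3 or null replicate 3) and 1565 to 2768 calls among all tested loci, against 4 and 2847. Fewer libraries enter those fits. The lists other than the cell type markers together had 33 calls, and 22 to 28 with a library left out. Of the 4 called loci, only Hoxb7 was called in every fit run that had a Hox locus.

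Same-numbered libraries share only a number: their deviations correlated at 0, 0.10 and 0.05, and control replicate 1 correlated best with null replicate 2. With the replicate number as a block, 1 Hox locus was called (Hoxb7), Hoxb13, Hoxc13 and Hoxa2 had limma adjusted p-values of 0.0631, 0.0702 and 0.0717, and 1994 loci were called in all.

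Among all tested loci the split was 1471 higher and 1376 lower, and 1877 and 1094 with equal FPKM totals. The ratio of summed Hox levels was 2.24 to 2.79 with a library left out, 2.59 and 2.63 with median centring and equal totals, and 2.39 without the highest locus of each cluster. Depth limits all of this: the tested Hox loci that were called rested on as few as 16 fragments over 6 libraries, and loci with 1 or 2 fragments allow no reading of a change.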

Other observations

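Olfactory and vomeronasal receptor genes, families normally silent in ES cells, were counted after the Hox values had been seen, as other loci of very low level. Of 1110 olfactory receptor loci, 56, 68 and 58 had a value above 0 in control replicates 1 to 3 and 80, 81 and 80 in null replicates 1 to 3. Of 341 vomeronasal receptor loci the numbers were 19, 30 and 22, and 40, 37 and 32. In both families every null library had more detected loci than every control library, at similar depth. Over all 23244 loci the numbers above 0 were 16266, 16433 and 16311 in control and 16352, 16567 and 16351 in null replicates 1 to 3. The summed level of the receptor loci had ratios of 1.63 and 1.60, but a single locus made up 80.4% of the olfactory and 42.7% of the vomeronasal sum. No test was run on these counts.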
